A study of Mus musculus with 57 samples.

Results

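The genes of the synaptic vesicle cycle and of the synaptic scaffold were followed through 3 histone marks in brain cortex and gastrocnemius muscle of 13 months old PSAPP mice. They are 36 autosomal genes, taken by name and role from the presynaptic and postsynaptic machinery, of 24963 autosomal genes with a curated RefSeq transcript on mouse build mm10. 11 act on the synaptic vesicle and its release, 2 are vesicular glutamate transporters, 6 belong to the active zone, 8 to the postsynaptic scaffold, 6 to adhesion across the cleft and 3 to postsynaptic signalling. PSAPP is a transgenic mouse model of Alzheimer's disease that carries a mutant chimeric mouse and human amyloid precursor protein gene and a mutant human presenilin gene. All mice were of this strain and age and were kept on the same modified AIN-93 diet, and no wild type mice entered the series. The comparison is therefore between the 2 tissues and not between disease and health. The sources used here do not name the promoter that drives the transgenes.

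Chromatin was immunoprecipitated with an antibody to each mark and sequenced, in 9 cortex and 10 gastrocnemius libraries per mark and 57 libraries in all. For each library the deposited data hold a list of enriched regions (peaks) with the number of reads in each. The deposited names carry 10 animal codes, 9 of them with both tissues, and by the study's methods the tissues came from male and female mice, with fewer males for cortex than for muscle. Which libraries are male is not in the labels used here, so sex entered no comparison. A gene was counted as carrying a peak when a peak lay within 1 kb of any of its transcription start sites (TSSs), and the reads of those peaks were scaled to CPM, with the reads in autosomal peaks of the library as the total.

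Release of neurotransmitter requires that a vesicle filled with glutamate or another transmitter docks at the active zone and fuses through the SNARE proteins when calcium binds synaptotagmin. On the other side of the cleft, scaffold proteins of the Dlg, Dlgap, Shank and Homer families hold receptors and kinases in place, while neurexins, neuroligins and Lrrtm proteins bridge both membranes. H3K4me3 marks promoters that are open to transcription, H3K27ac marks active promoters and enhancers, and H3K27me3 is laid down by Polycomb repressive complexes at silenced developmental and lineage genes. In non-neuronal cells many neuronal genes are also bound by the repressor REST at a sequence called RE1, whose bases form a left and a right part.

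The start regions of 4 members are shown as examples of the 4 conditions met in muscle, with every CG dinucleotide in capitals. Each runs from 250 bases before to 50 bases after a RefSeq start site, 5′ to 3′ on the strand of the gene, in build GRCm38.p6 (mm10). In muscle the Cplx1 promoter carried H3K27me3 without H3K4me3. The Unc13a promoter carried both, and H3K27ac as well. The first Homer1 promoter carried H3K4me3 and H3K27ac without H3K27me3. The last Sv2b promoter, inside the gene, carried none of the 3 marks.
Cplx1, chr5:108549978-108550277, minus strand, 24 CG: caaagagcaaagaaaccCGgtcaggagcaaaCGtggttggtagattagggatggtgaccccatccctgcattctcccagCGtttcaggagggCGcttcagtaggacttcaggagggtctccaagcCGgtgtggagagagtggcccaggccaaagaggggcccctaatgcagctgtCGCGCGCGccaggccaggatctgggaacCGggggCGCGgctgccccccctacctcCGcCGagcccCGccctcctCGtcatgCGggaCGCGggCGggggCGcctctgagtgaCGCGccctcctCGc
Unc13a, chr8:71671708-71672007, minus strand, 27 CG: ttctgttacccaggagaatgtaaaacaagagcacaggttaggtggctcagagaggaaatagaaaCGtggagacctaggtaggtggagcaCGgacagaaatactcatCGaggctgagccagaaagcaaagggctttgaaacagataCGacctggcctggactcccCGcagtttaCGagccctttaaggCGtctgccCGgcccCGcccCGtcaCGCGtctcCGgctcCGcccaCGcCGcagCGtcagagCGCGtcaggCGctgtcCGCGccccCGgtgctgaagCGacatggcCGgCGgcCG
Homer1, first promoter, chr13:93303507-93303806, plus strand, 26 CG: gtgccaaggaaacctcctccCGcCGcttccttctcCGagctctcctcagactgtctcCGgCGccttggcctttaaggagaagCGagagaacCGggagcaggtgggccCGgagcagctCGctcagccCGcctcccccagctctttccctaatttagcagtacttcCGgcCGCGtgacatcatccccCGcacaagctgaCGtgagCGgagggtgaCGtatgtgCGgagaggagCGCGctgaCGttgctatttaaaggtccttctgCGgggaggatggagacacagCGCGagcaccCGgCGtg
Sv2b, last promoter, chr7:75219970-75220269, minus strand, 0 CG: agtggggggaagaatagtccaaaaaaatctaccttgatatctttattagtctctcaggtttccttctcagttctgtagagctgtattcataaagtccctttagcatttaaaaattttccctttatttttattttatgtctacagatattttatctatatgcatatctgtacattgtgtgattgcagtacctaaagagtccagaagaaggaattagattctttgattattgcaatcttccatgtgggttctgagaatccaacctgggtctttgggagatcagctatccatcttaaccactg
The Cplx1, Unc13a and Homer1 stretches held between 24 and 27 CG dinucleotides, whereas the Sv2b stretch held none. Other promoters did not keep to this split. The second Sv2b promoter (H3K27me3 without H3K4me3) held 2 and the first Dlg2 promoter (both marks) 3. The inner Syn2 promoter, with H3K4me3 and H3K27ac, held 5. The fourth Dlgap1 promoter, with none of the marks in over 50% of muscle libraries, held 7.

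RE1-like sequences were searched within 1 kb of the start sites as CAGCACC followed by GGACAG with 0 to 20 bases between them, on both strands. They are shown as the form in which REST is known to bind neuronal genes, and capitals mark the searched letters.
Snap25, chr2:136714290-136714304, 611 bases from the nearest start: CAGCACCctGGACAG
Snap25, chr2:136714340-136714354, 661 bases from the nearest start: CAGCACCgcGGACAG
Cplx1, chr5:108549672-108549691, 346 bases from the start: CAGCACCtcacgatGGACAG
Unc13a, chr8:71671729-71671749, 18 bases from the start: CAGCACCgggggcgcGGACAG
All are written on the plus strand of GRCm38.p6. A pair occurred at 3 of 36 members (8.33%) and at 228 of 24963 autosomal genes (0.913%). Snap25 (the SNARE protein of the plasma membrane), Cplx1 (complexin, which clamps the SNARE complex) and Unc13a (Munc13-1, which primes vesicles) all had H3K27me3 peaks in 10 of 10 muscle libraries. Of the 228 genes, 107 carried H3K27me3 in over 50% of the muscle libraries, 96 had H3K4me3 or H3K27ac without it and 25 had none of the 3 marks. A match is a run of letters and not a measured binding site.

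The libraries held between 9025744 and 18622389 reads in autosomal peaks for H3K4me3, between 3903965 and 27042958 for H3K27ac and between 2994110 and 18236388 for H3K27me3, and no pair of libraries held identical values. The tissues matched their labels. Over 8 skeletal muscle fibre genes the summed H3K4me3 level was 185 to 220 CPM in cortex and 661 to 1550 CPM in gastrocnemius, and 5 of them (Ckm, Myh4, Tnnt3, Ttn and Myh2) had no cortex peak. Over 5 neuron genes it was 447 to 520 CPM in cortex and 39.4 to 52.0 CPM in gastrocnemius, where Nefl had no peak. The sums over astrocyte (211 to 411 against 98.0 to 143 CPM), oligodendrocyte (308 to 424 against 90.7 to 141 CPM) and microglia genes (32.8 to 70.7 against 0 to 18 CPM) were also higher in cortex, so that the cortex libraries mix neurons with glia. The 5 astrocyte genes were not alike. By the read test used below 3 were called higher in cortex and 1 in gastrocnemius for H3K4me3, against 38.4% and 38.7% of all genes tested. For H3K27ac they were 3 and 2, against 30.5% and 43.7%. Endothelial genes summed to 93.4 to 124 CPM in cortex and 313 to 551 CPM in gastrocnemius, and genes of Schwann cells, the glia of nerves, to 273 to 335 and 297 to 419 CPM. What part these other cells take in the levels below was not tested. In bulk tissue, fewer cells with a mark and less of the mark per cell cannot be told apart, and a gene with 2 marks may carry them in different cells.

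All 36 genes had an H3K4me3 peak in all 9 cortex libraries. In gastrocnemius 29 of them had a peak in 10 of 10 libraries and Shank2, a master scaffold of the postsynaptic density, in 9 of 10. Sv2a, a vesicle glycoprotein, had one in 6 of 10, Lrrtm1 in 5 and Lrrtm2, both postsynaptic adhesion proteins, in 4. Snap25, Cplx1 and Slc17a6 (the vesicular glutamate transporter VGLUT2) had none. With Fisher's exact test on the number of libraries with a peak, 3 of 36 members were called more often marked in cortex (adjusted p = 0.000233 each) and 0 in gastrocnemius, where 0 also had an unadjusted p under 0.05. Over the 16406 genes tested, 4.89% were called in cortex and 3.35% in gastrocnemius, so that the presence of an H3K4me3 peak separated few members. With equally many peaks per library 8 members were called.

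**Figure D1:**
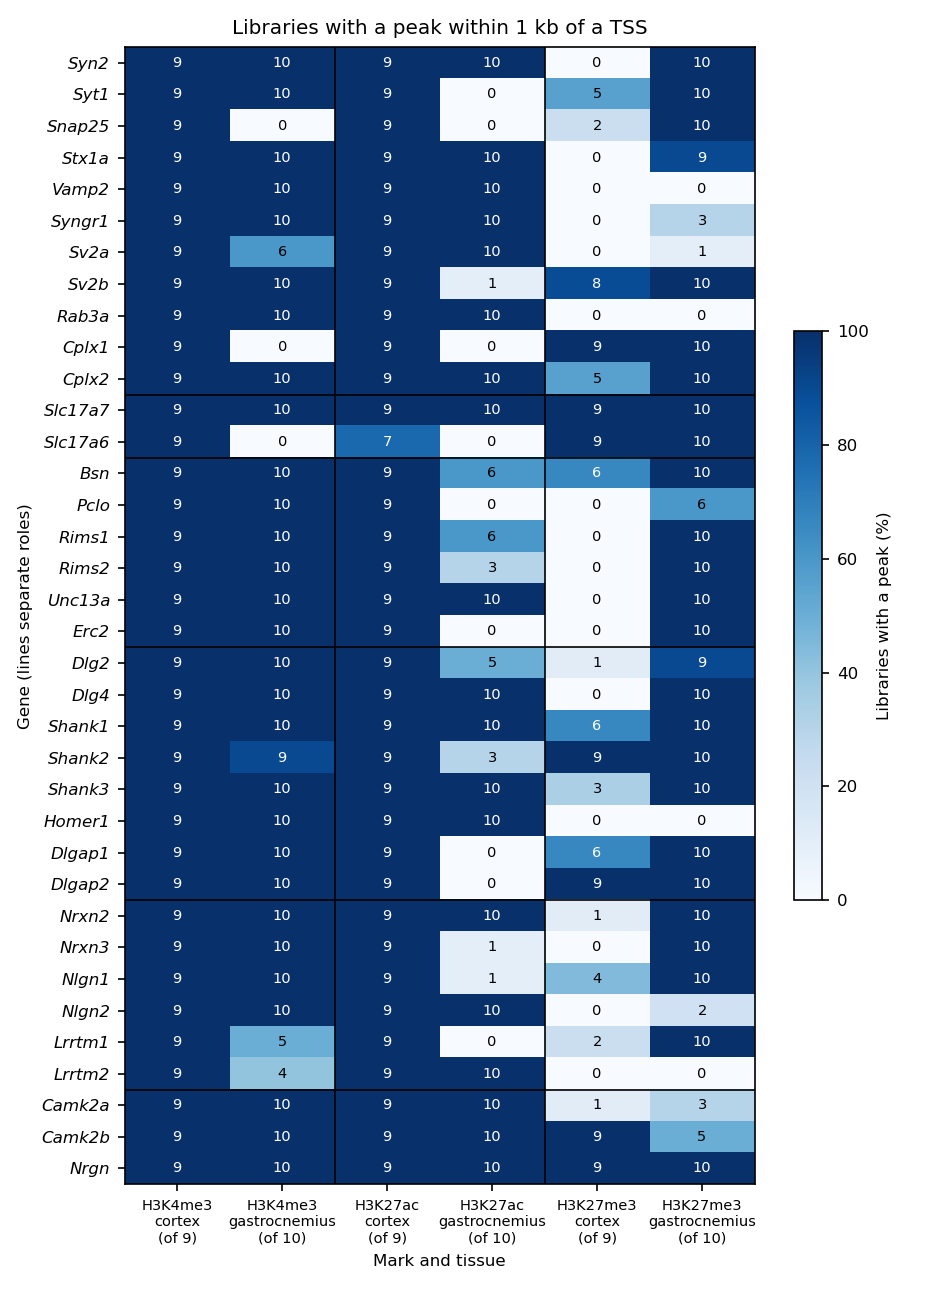
Percentage of libraries with a peak within 1 kb of a TSS for each of the 36 genes (rows, grouped by role) in each mark and tissue (columns, cortex n = 9 and gastrocnemius n = 10). The H3K4me3 column of cortex is full, that of gastrocnemius is empty at Snap25, Cplx1 and Slc17a6, and the H3K27me3 column of gastrocnemius is filled for most genes.

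The H3K4me3 level was called different at more of them. By edgeR's quasi-likelihood test on the reads at TSSs, 32 of 36 members were higher in cortex and 1 was higher in gastrocnemius, against 38.4% and 38.7% of the 15683 genes tested. Of the 32, 3 (Snap25, Cplx1 and Slc17a6) had 0 reads in all muscle libraries. They passed the read minimum through cortex alone and had to differ, so nothing is read from the count against the background. The median log2 difference, cortex minus gastrocnemius, was 2.86 over the members and -0.00 over all genes tested, and it was the same with the 3 genes without a muscle peak set at 3 reads per muscle library.

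Among vesicle genes, Snap25 stood between 116 and 134 CPM (median 123) in the cortex libraries. Cplx1 stood between 57.6 and 78.6 CPM (median 68.6) and Slc17a6 between 8.11 and 36.7 CPM (median 25.5). None of the 3 had a called muscle peak, so no fold is given, since an uncalled region may still hold reads. Their fitted log2 differences were the largest of the set, but that order rests on 0 muscle reads and does not rank them against genes with a muscle peak.

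Widths are the summed widths of all peaks within 1 kb of any start of a gene, so that separate peaks at separate promoters add up. Syt1, the calcium sensor synaptotagmin 1, had 142 ± 7.33 CPM (SD, n = 9) in cortex and 5.68 ± 1.5 CPM (SD, n = 10) in gastrocnemius, 25.1-fold lower. The width was 8.6 kb in cortex and 1.6 kb in gastrocnemius in the median library. A low muscle level was also found at the adhesion gene Nlgn1 (neuroligin 1), with 229 ± 7.77 CPM in cortex (SD, n = 9) and 10.2 ± 3.20 CPM in gastrocnemius (SD, n = 10), and at Dlgap1, which links PSD-95 to Shank, with 184.1 ± 15.4 CPM (SD, n = 9) and 6.65 ± 2.0 CPM (SD, n = 10). Over all members with H3K4me3 the median width was 6.9 kb in cortex (36 genes) and 2.7 kb in gastrocnemius (31 genes), while over all marked autosomal genes it was 3.0 kb and 4.0 kb. Vamp2 (6.2 kb in cortex and 19.4 kb in gastrocnemius), Rab3a (6.0 and 11.4 kb), Shank3 (4.4 and 9.5 kb) and Syn2 (5.0 and 5.8 kb) were wider in muscle. The difference in width between the members and all genes was not tested.

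The smallest H3K4me3 differences were at Homer1, Shank3 and Rab3a, none of which passed the test. Homer1, a scaffold that links glutamate receptors to calcium stores, spanned 159 to 182 CPM in cortex (median 175) and 151 to 202 CPM in gastrocnemius (median 166), a log2 difference of 0.06 ± 0.05 (SE, edgeR adjusted p = 0.322). Shank3 spanned 81.3 to 95.4 CPM (median 87.3) and 69.3 to 108 CPM (median 96), and Rab3a, the GTPase of the vesicle, 84.1 to 142 CPM (median 91.5) and 83.9 to 282 CPM (median 138). In all 3 the tissues overlapped. With the part of the peak inside the window Shank3 and Rab3a were called higher in cortex, at log2 0.88 and 0.41 (edgeR adjusted p = 6.7e-06 and 0.0176). That setting moved the median of all genes to 0.34, which lies close to the Rab3a value. With the whole peak Shank3 was called higher in gastrocnemius by DESeq2 (log2 -0.12, adjusted p = 0.0952) and with equally many peaks (edgeR, log2 -0.14, adjusted p = 0.0576). Rab3a lies close to other genes, and its muscle peaks also covered the starts of Mpv17l2 in 6 libraries and Ifi30 in 3.

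Vamp2, the vesicle SNARE synaptobrevin 2, was the member called higher in gastrocnemius, with 160 to 352 CPM in cortex (median 165) and 141 to 419 CPM in gastrocnemius (median 381). The ranges overlapped and the log2 difference was -0.87 ± 0.22 (SE, edgeR adjusted p = 0.00128). Its peaks ran on over the start of the circadian gene Per1 in 8 of 10 muscle libraries and 1 of 9 cortex libraries. When only the part of each peak inside the TSS window was counted, the difference turned to 0.42 (edgeR adjusted p = 0.0169), in a setting that also moved the median of all genes from -0.00 to 0.34.

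**Figure D2:**
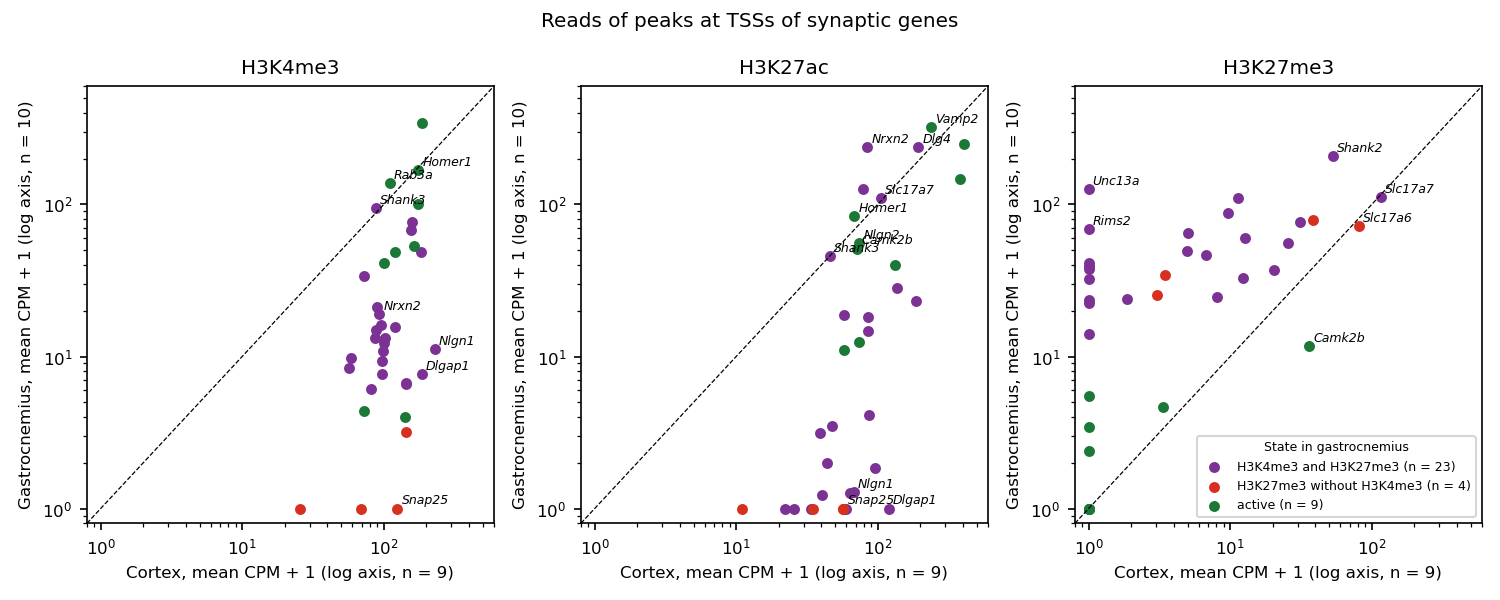
Mean CPM + 1 at the TSSs of the 36 genes in cortex (x axis, log scale, n = 9) against gastrocnemius (y axis, log scale, n = 10), one panel per mark, coloured by the combination of marks in gastrocnemius. In H3K4me3 32 genes were called higher in cortex, and in H3K27me3 21 were called higher in gastrocnemius.

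H3K27ac was found at all 36 genes in cortex, in 9 of 9 libraries each except Slc17a6 with 7. In gastrocnemius 19 genes had a peak in 10 of 10 libraries, and these were Syn2, Stx1a, Vamp2, Syngr1, Sv2a, Rab3a, Cplx2, Slc17a7, Unc13a, Dlg4, Shank1, Shank3, Homer1, Nrxn2, Nlgn2, Lrrtm2, Camk2a, Camk2b and Nrgn. Bsn and Rims1 (the active zone proteins bassoon and RIM1) had a peak in 6 libraries and Dlg2 (PSD-93) in 5, which is within 1 library of the limit for presence used below. Rims2 and Shank2 had one in 3, Sv2b, Nrxn3 and Nlgn1 in 1, and Syt1, Snap25, Cplx1, Slc17a6, Pclo, Erc2, Dlgap1, Dlgap2 and Lrrtm1 in 0. By Fisher's exact test 14 of 36 members were called more often marked in cortex and 0 in gastrocnemius (0 at an unadjusted p under 0.05), against 9.33% and 4.24% of the 17987 genes tested.

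By reads at TSSs, 35 members could be tested and 28 were higher in cortex, while 4 were higher in gastrocnemius, against 30.5% and 43.7% of the 16809 genes tested. Of the 28, 8 (Syt1, Snap25, Cplx1, Pclo, Erc2, Dlgap1, Dlgap2 and Lrrtm1) had 0 reads in all muscle libraries. They passed the read minimum through cortex alone and had to differ, so nothing is read from this count against the background. The median log2 difference was 2.65 over the members, also with the 8 tested genes without a muscle peak set at 3 reads per muscle library, and -0.16 over all genes tested. Slc17a6 did not reach the minimum of 10 reads in 9 libraries. Without the run-numbered libraries 15 of the 28 calls were kept, the call of Nlgn2 was lost with a log2 difference of 0.46 (edgeR adjusted p = 0.119) against 0.42 in all libraries, and 12 genes could not be tested.

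Dlgap1, Syt1 and Snap25 had no muscle H3K27ac peak and the largest fitted log2 differences, an order that rests on 0 muscle reads and does not rank them against genes with a muscle peak. Dlgap1 spanned 81.8 to 183 CPM in cortex (median 102), Syt1 42.0 to 68.4 CPM (median 60.6) and Snap25 52.7 to 61.4 CPM (median 55.3). Among genes acetylated in both tissues, Cplx2 had 185 ± 50.2 CPM in cortex (SD, n = 9) and 22.3 ± 3.25 CPM in gastrocnemius (SD, n = 10), 8.28-fold lower. The cortex value sums peaks at both of its promoters (103 and 82.1 CPM), of which the first was acetylated in muscle (22.3 CPM) and the second in 0 of 10 libraries.

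The smallest differences were at Shank3, Slc17a7 and Dlg4, and none passed the test. Shank3 spanned 35.8 to 51.8 CPM in cortex (median 45.3) and 31.0 to 53.9 CPM in gastrocnemius (median 46.7). Slc17a7 (the transporter VGLUT1) spanned 70.6 to 128 CPM (median 100.9) and 39.9 to 220.5 CPM (median 71.7), and Dlg4 (PSD-95) 102 to 298 CPM (median 121) and 85.0 to 366 CPM (median 283). The tissues overlapped in each. The Slc17a7 peaks also covered the starts of Aldh16a1 and Pih1d1 in 9 cortex and 10 muscle libraries. Those of Dlg4 covered the start of Acadvl in 4 cortex and 10 muscle libraries. With the part of the peak inside the window the 3 genes were higher in cortex, at log2 0.60, 0.52 and 0.41 (edgeR adjusted p = 0.000111, 0.000314 and 0.0364), while the median of all genes moved from -0.16 to 0.30.

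The 4 members with more H3K27ac in muscle were Nrxn2, Syn2, Vamp2 and Homer1. Nrxn2, a presynaptic neurexin, spanned 66.9 to 102 CPM in cortex (median 85.6) and 11.6 to 483 CPM in gastrocnemius (median 226), with a log2 difference of -1.51 ± 0.58 (SE, edgeR adjusted p = 0.0282). Its muscle libraries straddled all cortex libraries, its peaks reached the muscle gene Pygm in 5 of 10 libraries and Rasgrp2 in 7, and with the animal as a block the difference was -1.03 (adjusted p = 0.191). For Syn2 (synapsin 2, which tethers vesicles) the signal lay over an inner promoter next to Timp4, described below. Vamp2 had a log2 difference of -0.45 ± 0.16 (SE, edgeR adjusted p = 0.0166), which was -0.30 with TMM scaling and no longer called (adjusted p = 0.103). Homer1 spanned 59.5 to 72.4 CPM (median 68.2) and 66 to 107 CPM (median 80.4), a log2 difference of -0.31 ± 0.09 (SE, edgeR adjusted p = 0.00687) that was -0.15 with TMM scaling (adjusted p = 0.165). With the part of the peak inside the window, and so with the same move of the median of all genes towards cortex, 0 of the 4 were called higher in gastrocnemius. Nrxn2 and Syn2 were then called higher in cortex, at log2 0.49 and 0.56 (edgeR adjusted p = 0.0451 and 0.0005), and Vamp2 stood at 0.17 (adjusted p = 0.155). With only the most upstream start of each gene Syn2 was also higher in cortex, at 5.08 (adjusted p = 0.000212).

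H3K27me3 showed the opposite pattern. Counted as present when over 50% of the libraries carried a peak (at least 5 of 9 in cortex and 6 of 10 in gastrocnemius), it was found at 27 of 36 members in gastrocnemius (75%) and at 13 in cortex (36.1%). Over all autosomal genes the shares were 23.2% and 22.8%, and among the 15332 genes with H3K4me3 in cortex 23.9% carried H3K27me3 in gastrocnemius. By Fisher's exact test 17 of the 36 members were called more often marked in gastrocnemius and 1 in cortex, with 30 of them entering the test, against 18.7% and 15.1% of the 8913 genes tested. Of the 17, Syt1 and Cplx2 lay close to the limit, at the same adjusted p (0.0963) as the call in cortex. By reads at TSSs 21 of 36 were higher in gastrocnemius and 0 in cortex by edgeR, against 28.5% and 16.4% of the 6366 genes tested. In cortex 0 also had an unadjusted p under 0.05 and 0 were called by DESeq2. The 27 members that entered the read test are mostly those with the mark in muscle, so these counts describe the set of 36. Of the 21 called, 8 (Syn2, Stx1a, Rims1, Rims2, Unc13a, Erc2, Dlg4 and Nrxn3) had 0 reads in all cortex libraries and passed the read minimum through gastrocnemius alone, so they had to differ, and nothing is read from the count against the background. The 6 that entered without a call were Syt1, Sv2b, Slc17a7, Slc17a6, Bsn and Camk2b. With the smallest called count entered for uncalled libraries, Syt1, Bsn and Sv2b were called higher in gastrocnemius, at log2 -1.33, -1.25 and -0.87 (edgeR adjusted p = 0.000274, 0.000874 and 0.0249), and Camk2b higher in cortex, at 1.30 (adjusted p = 0.00325). In the 13 libraries whose deposited names carry no run number, 4 of the 21 calls were kept (Cplx1, Cplx2, Shank2 and Dlgap2), 3 were lost and 14 genes no longer reached the read minimum. Of the lost calls, the log2 difference was -2.89 at Shank1 (edgeR adjusted p = 0.105, against -3.32 in all libraries), -2.11 at Dlgap1 (adjusted p = 0.251, against -2.32) and -0.63 at Nrgn (adjusted p = 0.202, against -1.15).

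Active zone genes were marked without exception in muscle. Rims1, Rims2, Unc13a, Erc2 and Bsn had H3K27me3 in 10 of 10 muscle libraries and Pclo (piccolo) in 6, at the limit for presence. In cortex Bsn had it in 6 of 9 libraries and the other 5 genes in none. Unc13a spanned 80.3 to 175 CPM in gastrocnemius (median 124), Rims2 53.1 to 106 CPM (median 63.2) and Erc2 21.9 to 59.9 CPM (median 38.9). With 0 reads in all 9 cortex libraries no fold or rank is given for these 3 genes.

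Of the 8 postsynaptic scaffold genes 7 were marked in muscle, in 10 of 10 libraries each except Dlg2 with 9, and Homer1 had 0. Shank2 spanned 82.2 to 328 CPM in gastrocnemius (median 221), against 12.7 to 93.3 CPM (median 49.8) in cortex. The log2 difference was -1.99 ± 0.37 (SE, edgeR adjusted p = 0.000178), and the ranges overlapped. Shank1 spanned 28.5 to 189 CPM (median 78.7) in gastrocnemius and 0 to 17.2 CPM (median 8.26) in cortex, without overlap. In cortex Dlgap2 and Shank2 were marked in 9 of 9 libraries, Shank1 and Dlgap1 in 6, Shank3 in 3, Dlg2 in 1 and Dlg4 and Homer1 in 0.

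Of the 11 vesicle genes 7 were marked in muscle. Syn2, Syt1, Snap25, Sv2b, Cplx1 and Cplx2 had H3K27me3 in 10 of 10 muscle libraries and Stx1a (syntaxin 1A) in 9. Syngr1 had it in 3, Sv2a in 1 and Vamp2 and Rab3a in 0. Cplx2 spanned 72.2 to 147 CPM (median 103) in gastrocnemius and 0 to 28.6 CPM (median 11.3) in cortex, without overlap. Cplx1 spanned 52.1 to 104 CPM (median 80.3) and 16.4 to 60.2 CPM (median 44.0), a log2 difference of -1.05 ± 0.24 (SE, edgeR adjusted p = 0.00133), and its ranges overlapped slightly. With the part of the peak inside the window the Cplx1 difference was -0.26 (adjusted p = 0.208). In cortex Cplx1 was marked in 9 of 9 libraries, Sv2b in 8, Syt1 and Cplx2 in 5, Snap25 in 2 and the other 6 in none.

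Both glutamate transporters carried H3K27me3 in all libraries of both tissues. Slc17a6 spanned 47.6 to 99.2 CPM (median 87.9) in cortex and 43.4 to 86.1 CPM (median 75.5) in gastrocnemius, and Slc17a7 43.9 to 264 CPM (median 68.2) and 56.9 to 185 CPM (median 99.8). The tissues overlapped in both genes. The log2 differences were 0.17 ± 0.16 and 0.04 ± 0.37 (SE, edgeR adjusted p = 0.430 and 0.941). Sv2b also had a small difference, with 0 to 38.4 CPM (median 15.4) in cortex and 20.03 to 61.6 CPM (median 30.3) in gastrocnemius, -0.90 ± 0.56 on the log2 scale (SE, edgeR adjusted p = 0.220).

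**Figure D3:**
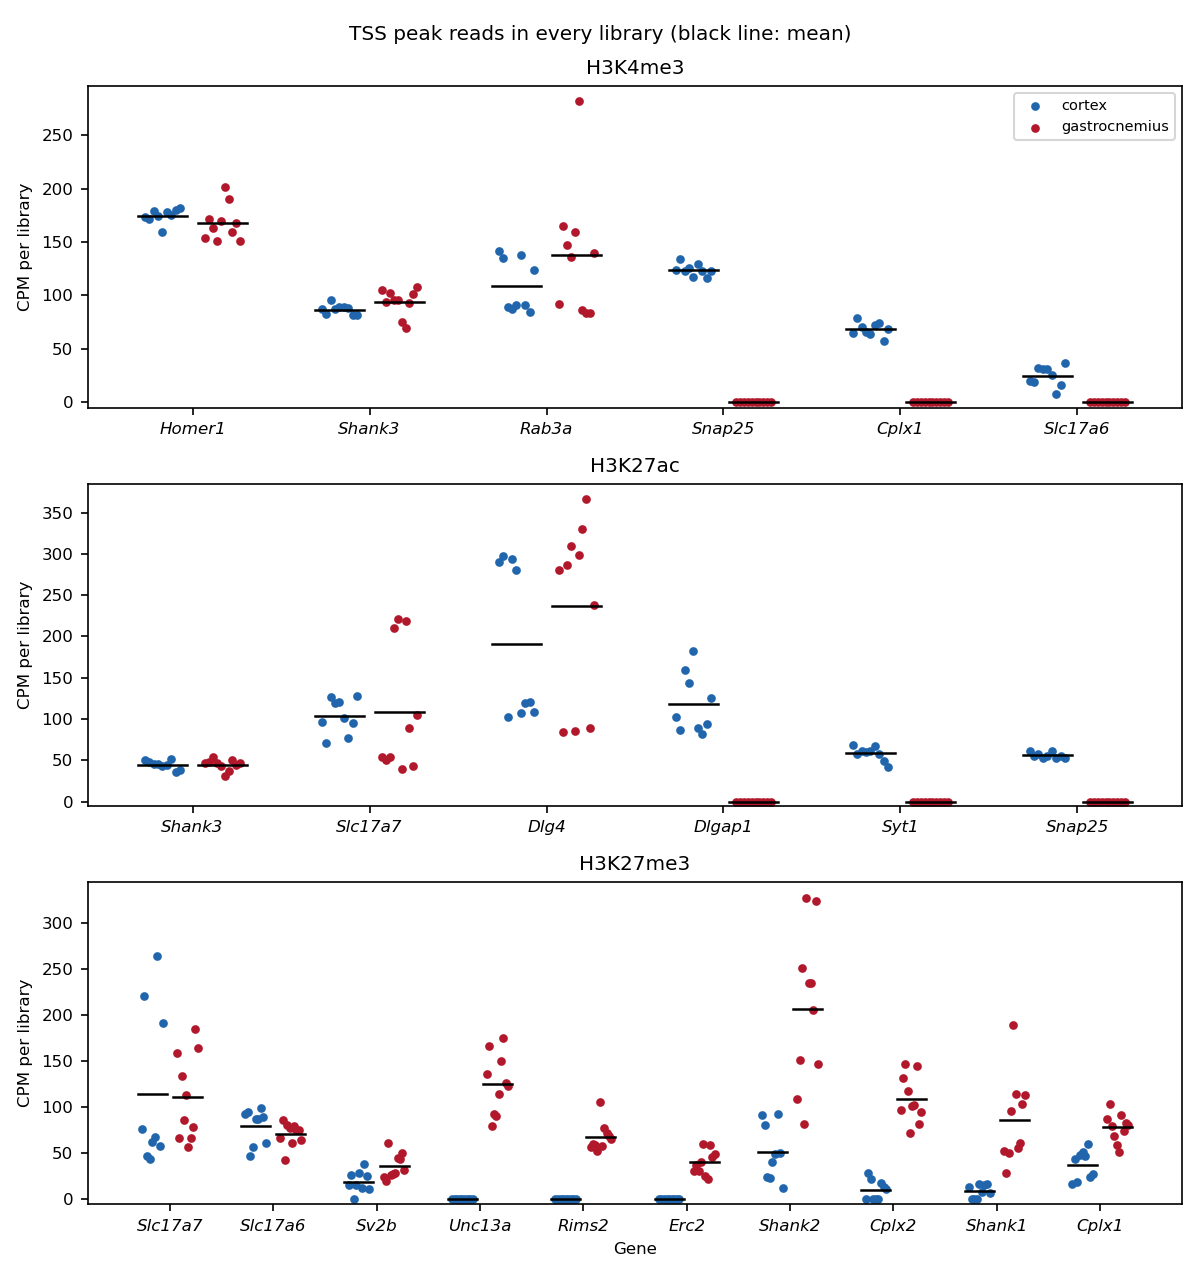
CPM at the TSS in every library (points) with the mean (black line) for the genes with the largest and smallest fitted log2 differences in each mark, cortex n = 9 and gastrocnemius n = 10. In H3K27me3 Unc13a, Rims2 and Erc2 have points only in gastrocnemius above 0, while the glutamate transporters overlap between tissues.

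Among adhesion genes Nrxn2, Nrxn3, Nlgn1 and Lrrtm1 had H3K27me3 in 10 of 10 muscle libraries, Nlgn2, the neuroligin of inhibitory synapses, in 2 and Lrrtm2 in 0. In cortex Nlgn1 had it in 4 of 9 libraries, 1 below the limit, Lrrtm1 in 2, Nrxn2 in 1 and the other 3 in 0. Of the signalling genes Nrgn (neurogranin, which binds calmodulin) was marked in every library of both tissues and was 2.21-fold higher in gastrocnemius (log2 difference -1.15, edgeR adjusted p = 0.00369). This call was lost with the part of the peak inside the window (-0.15, adjusted p = 0.743) and with equally many peaks (-1.08, adjusted p = 0.135). Camk2a had H3K27me3 in 1 cortex and 3 muscle libraries.

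Camk2b, a subunit of calcium/calmodulin kinase II that skeletal muscle also uses, was the exception. It carried H3K27me3 in 9 of 9 cortex and 5 of 10 muscle libraries (Fisher's exact test, adjusted p = 0.0963), with 19.3 to 53.5 CPM (median 34.2) in cortex and 0 to 34.6 CPM (median 5.29) in gastrocnemius. The ranges overlapped. The Fisher call was lost when any of 18 libraries was left out and was kept only without gastrocnemius replicate 5, and the read difference was 1.69 ± 1.08 (SE, edgeR adjusted p = 0.233), or 5.36 with the animal as a block (adjusted p = 0.0762).

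The marks were then read together at each gene, with a gene called active when it had H3K4me3 or H3K27ac without H3K27me3. In gastrocnemius 23 of 36 members had both H3K4me3 and H3K27me3 (63.9%), against 12.5% of all autosomal genes. This group was set without regard to H3K27ac. Among the 23, Syn2, Stx1a, Cplx2, Slc17a7, Unc13a, Dlg4, Shank1, Shank3, Nrxn2 and Nrgn also had H3K27ac in 10 of 10 muscle libraries. Bsn and Rims1 had it in 6, and the rest of the 23 in fewer than 6. Another 4 had H3K27me3 without H3K4me3, namely Snap25, Cplx1, Slc17a6 and Lrrtm1 (11.1%, against 10.7%), and they were 8 when every library of a mark was limited to equally many peaks. 9 were active (25%, against 52.4%), namely Vamp2, Syngr1, Sv2a, Rab3a, Homer1, Nlgn2, Lrrtm2, Camk2a and Camk2b. The H3K4me3 and H3K27ac peaks counted at Nlgn2 also covered the start of Tmem256 in 10 muscle libraries. Those at Syngr1 covered the start of Gm31134 in 10. No member was free of all 3 marks in muscle, against 24.3% of all autosomal genes and 1.43% of those with H3K4me3 in cortex. When only the most upstream start of each gene was used, 1 member was free of all 3 marks in either tissue. Lrrtm1 moved to the group with both marks when any of 5 muscle libraries was left out, and Camk2b to the same group when any of 5 was.

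In cortex 13 members had both H3K4me3 and H3K27me3 (36.1%, against 12% of all autosomal genes) and 23 were active (63.9%, against 54.8%). When the marks had to be present in every library, 7 had both. Of the 23 active in cortex, 13 had both marks in muscle, 2 (Snap25 and Lrrtm1) had H3K27me3 without H3K4me3, and 8 were active in muscle too. Of the 13 with both marks in cortex, 10 also had both in muscle, Cplx1 and Slc17a6 lost the H3K4me3 call, and Camk2b was active. Syt1 and Cplx2 sat at the limit in cortex, with H3K27me3 in 5 of 9 libraries.

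The 36 genes have 56 promoters when start sites whose 1 kb windows do not touch are kept apart, and 14 genes have more than 1. A peak that spans several promoters was counted at each. In gastrocnemius 24 promoters had both H3K4me3 and H3K27me3, 10 had H3K27me3 without H3K4me3, 14 were active and 8 were unmarked. The unmarked promoters were 2 of Dlg2, 3 of Dlgap1, 2 of Nrxn3 and the last of Sv2b. Each of these genes has another promoter with H3K27me3 in muscle. At the 8 promoters H3K27me3 was called in 0 to 5 of 10 muscle libraries, and the third promoter of Dlg2 and the fourth of Dlgap1 reached 5. In cortex 5 of them were active, while the second promoters of Dlg2 and Dlgap1 and the first of Nrxn3 were unmarked there too.

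**Figure D4:**
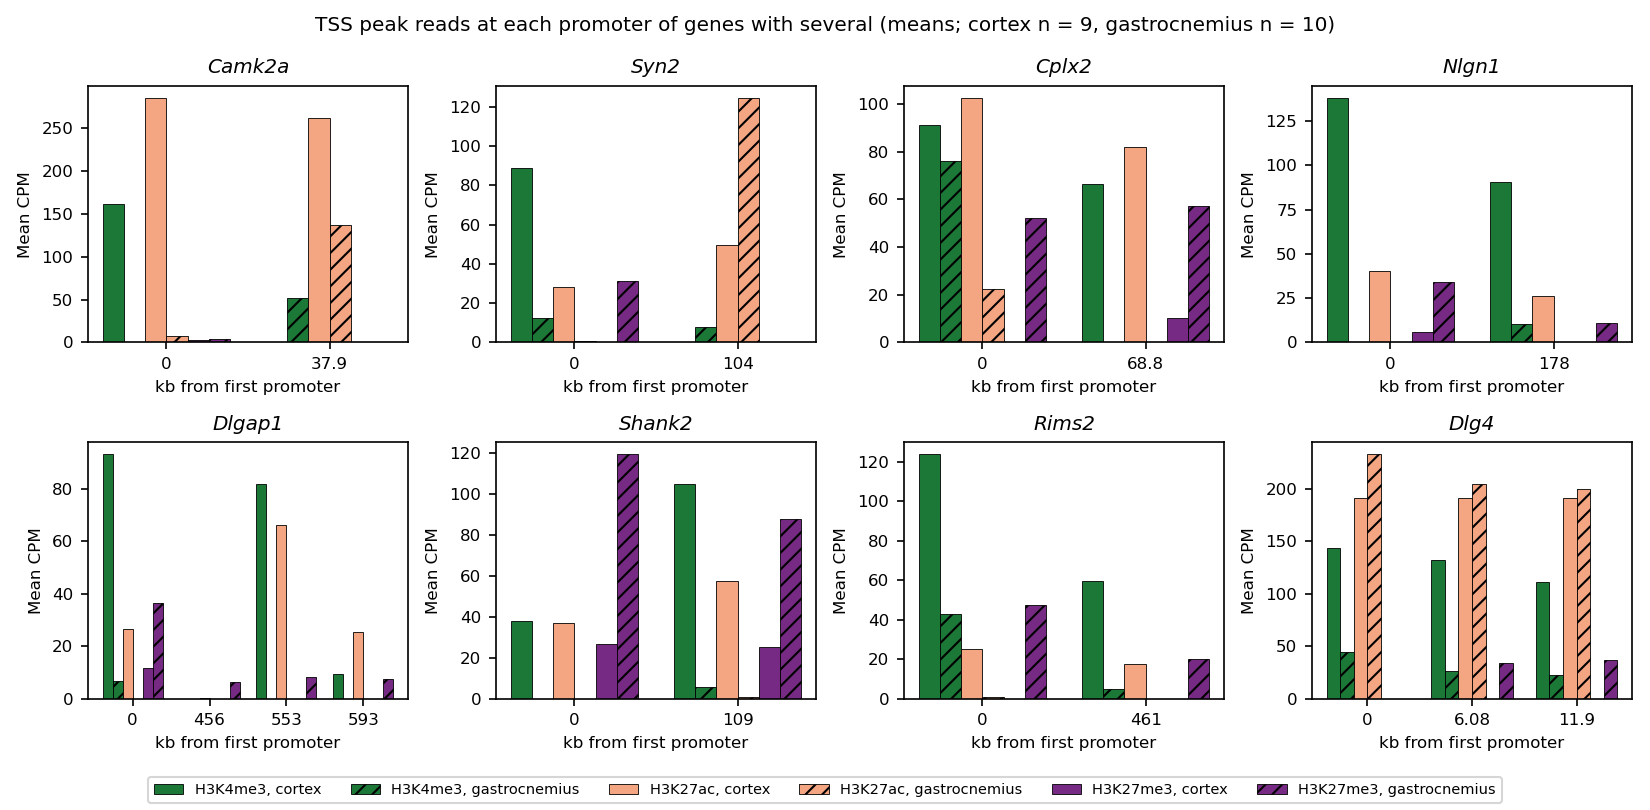
Mean CPM at each promoter of genes with several promoters, by distance from the first promoter in kb, for each mark (colour) and tissue (hatched bars, gastrocnemius; cortex n = 9, gastrocnemius n = 10). Camk2a has cortex H3K4me3 at its first promoter and muscle H3K4me3 at its second, with H3K27ac at both in both tissues, and the second Syn2 promoter carries H3K27ac in both tissues.

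Several genes carried different marks at their promoters in the 2 tissues. Camk2a had H3K4me3 at its first promoter in 9 of 9 cortex libraries (161 CPM on average) and 0 of 10 muscle libraries. At its second promoter, 37.9 kb further in, it had H3K4me3 in 0 cortex and 10 muscle libraries (51.9 CPM). Transcripts from that inner start are known in muscle to encode a short anchoring protein, alpha-KAP. H3K27ac lay over both promoters in both tissues, at 285 CPM in cortex and 7.73 CPM in gastrocnemius (9 of 10 libraries) over the first and at 262 and 137 CPM over the second. Both promoters therefore counted as active in both tissues, while their H3K4me3 peaks lay at different starts.

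Syn2 also differed between its promoters. Its first promoter had H3K27me3 in 10 of 10 muscle libraries (31.2 CPM) with H3K4me3 in 10 (12.4 CPM), and H3K27ac in 3. Its second promoter, 104 kb further in, had H3K27ac in 10 muscle libraries (124 CPM) and 9 cortex libraries (49.6 CPM), H3K4me3 in 8 muscle (7.77 CPM) and 0 cortex libraries, and no H3K27me3. The start of Timp4, a gene that lies inside Syn2 on the other strand, was under those H3K27ac peaks in 10 muscle and 4 cortex libraries.

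At Cplx2 the muscle H3K4me3 peak sat at the first promoter (76.1 CPM, 10 of 10 libraries) and the second, 68.8 kb further in, had none, while both carried H3K27me3 in 10 of 10 libraries. Nlgn1 kept muscle H3K4me3 at its second promoter in transcript order, 178 kb from the first, and Shank2 at its second, 109 kb in. At Dlg4 H3K27me3 was called at the first promoter in 0 of 10 muscle libraries, at the second in 9 and at the third in 10. The first Dlg4 promoter borders Acadvl, a gene of fatty acid oxidation.

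The CG content, which the choice of genes did not use, was then set beside the marks in muscle. Within 1 kb of the start the median ratio of observed to expected CG was 0.519 in promoters with both marks, 0.467 in those with H3K27me3 without H3K4me3, 0.386 in active ones and 0.257 in unmarked ones. The ranges overlapped, the unmarked promoters spanning 0.0496 to 0.422 and those with both marks 0.314 to 0.878. By gene, taking the start with the highest ratio, the median was 0.541 over the 36 members and 0.463 over all autosomal genes. The order by gene was different, with 0.601 in the 9 active members, 0.565 in the 23 with both marks and 0.511 in the 4 with H3K27me3 without H3K4me3, and over all autosomal genes 0.606, 0.599 and 0.258.

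Reads over the gene body, from 1 kb after the gene start to the gene end, were tested in the same way. The body includes the inner promoters of genes with several, and the part of a start peak that runs on past 1 kb. It is therefore not a separate line of evidence. The mean muscle H3K4me3 level was the same in both readouts at Shank2 (5.61 CPM), Nrxn3 (5.12 CPM) and Nlgn1 (10.2 CPM). In H3K4me3 34 of 36 members were higher in cortex and 1, Syn2, in gastrocnemius (log2 difference -0.38, and -0.21 with TMM scaling, where it was not called), against 24.8% and 40.9% of the 14075 genes tested. In H3K27ac 31 were higher in cortex and 1, Homer1, in gastrocnemius, against 35.5% and 36.2% of 15537. In H3K27me3 24 were higher in gastrocnemius and 0 in cortex by edgeR (0 at an unadjusted p under 0.05 and 0 by DESeq2), against 28.2% and 25.8% of 6941, and 27 of the 36 entered this test. 6 of the 24 (Syn2, Stx1a, Rims2, Dlg2, Dlg4 and Nrxn3) had 0 reads over the body in all cortex libraries and entered through gastrocnemius alone. Snap25, Cplx1 and Slc17a6 in H3K4me3, and Snap25, Cplx1, Pclo and Lrrtm1 in H3K27ac, had 0 body reads in all muscle libraries. They entered through cortex alone, so nothing is read from any of these counts against the background. With the animal as a block the H3K4me3 call of Homer1 was lost (log2 0.16, adjusted p = 0.146, against 0.17 without the block) and Camk2b was called higher in cortex for H3K27me3 (log2 4.65, adjusted p = 0.0421). Without the run-numbered libraries 12 of the 24 H3K27me3 calls were kept and the other 12 could not be tested.

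H3K27me3 peaks spread far into several genes in muscle. They covered 365 ± 109 kb of the Dlgap2 body (SD, n = 10), 295 ± 133 kb of Erc2 and 200 ± 26.0 kb of Shank2 in gastrocnemius, against 16.0 ± 7.92 kb, 1.11 ± 2.20 kb and 42.0 ± 12.8 kb in cortex (SD, n = 9). Per kb of body the H3K27me3 level of Shank2 was 3.39 CPM in gastrocnemius and 0.559 CPM in cortex, and that of Dlgap2 1.75 and 0.0733 CPM. Over the 36 members the median share of the body in H3K27me3 peaks was 17.6% in gastrocnemius and 0.114% in cortex, and for H3K27ac it was 65.4% in cortex and 18.4% in gastrocnemius. Over all autosomal genes with a body the medians were 0 for H3K27me3 in both tissues, and 21.2% and 25.2% for H3K27ac in cortex and gastrocnemius. Gastrocnemius replicate 5, with the most H3K27me3 reads (18236388), had the widest cover in 24 of the 32 members with any.

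**Figure D5:**
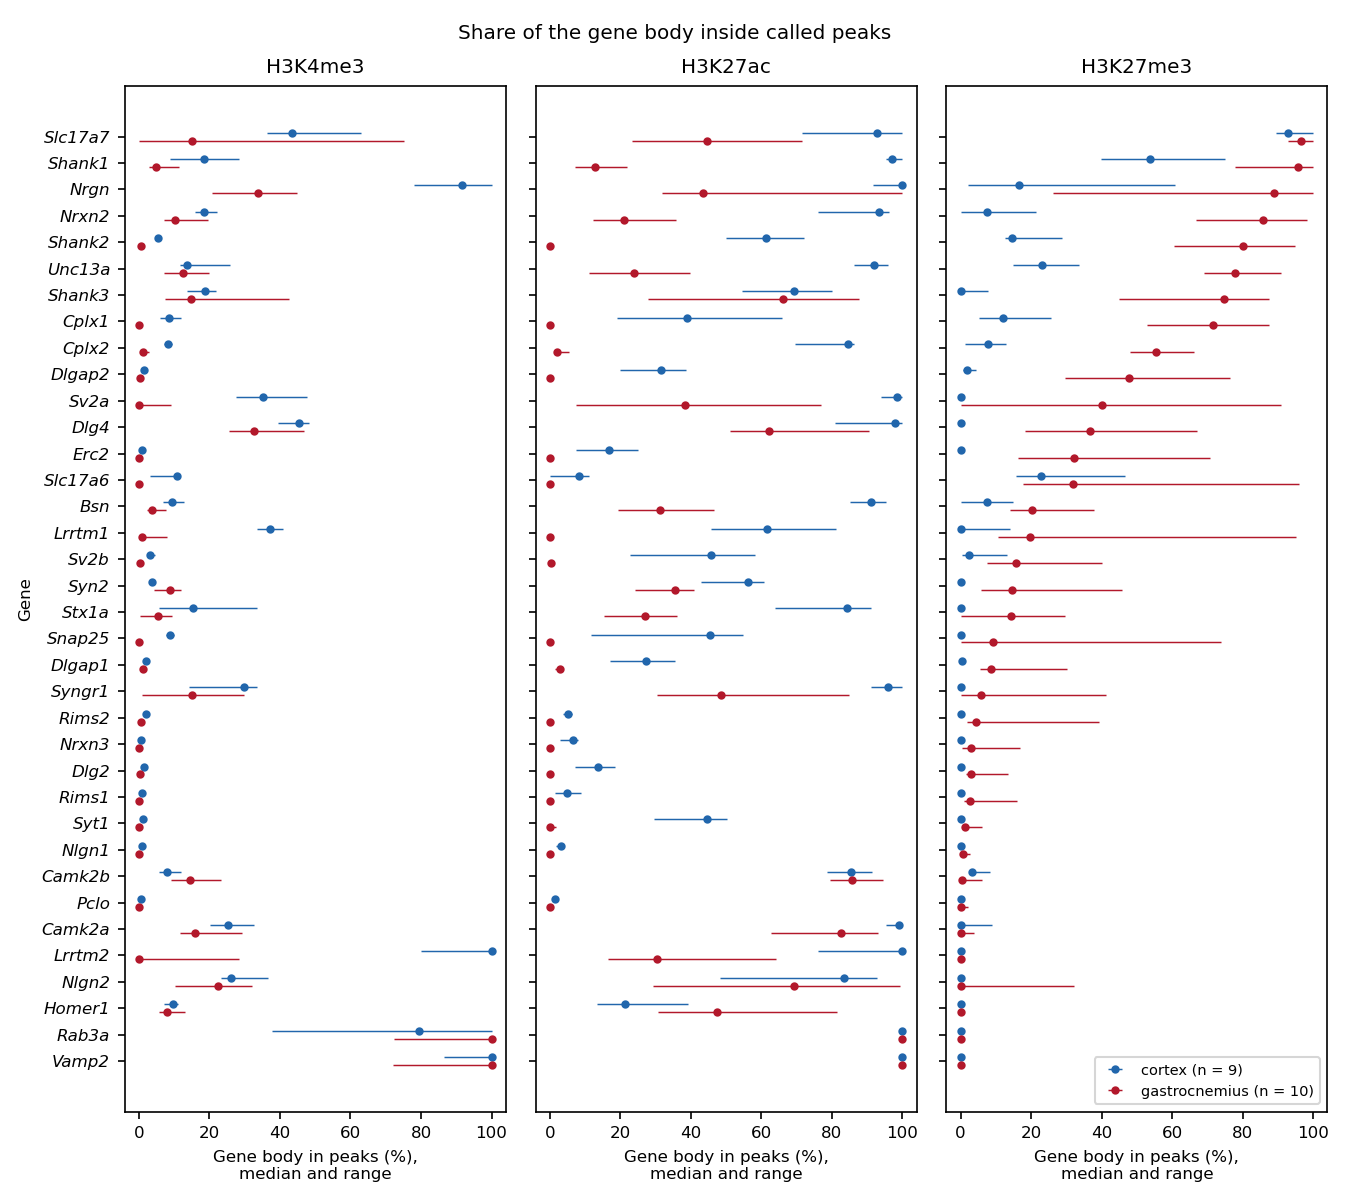
Share of the gene body inside called peaks in percent, as the median (point) and range (line) over libraries, for each gene, mark and tissue (cortex n = 9, gastrocnemius n = 10). H3K27ac covers more of most genes in cortex and H3K27me3 more in gastrocnemius.

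At some genes the body and the start differed. Nrxn2 H3K27ac, called higher in gastrocnemius at the start, was 8.76-fold higher in cortex over the body (log2 3.13, edgeR adjusted p = 2.84e-13). Vamp2 H3K4me3 likewise turned from -0.87 at the start to 0.51 over the body (adjusted p = 0.000804), and Syn2 H3K4me3 from 2.14 to -0.38. Sv2a had H3K27me3 at the start in 1 of 10 muscle libraries but over the body in 7 of 10, with a median of 40.1% of the body covered. Unc13a had no H3K27me3 at the start in cortex, yet in every cortex library peaks covered part of its body (median 23.2%), and in gastrocnemius the cover was 77.8%. The body of Slc17a7, marked at the start in all libraries, was covered almost fully in both tissues, at 94.5 ± 4.32% (SD, n = 9) in cortex and 96.4 ± 3.76% (SD, n = 10) in gastrocnemius.

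A second list of 40 synaptic genes, chosen by role among paralogues and further parts of the same machinery, was read in the same way. In H3K4me3 30 of 40 were higher in cortex at the start and 2 in gastrocnemius, with 37 entering the test, against 38.4% and 38.7% of all genes tested. In H3K27ac they were 22 and 6, with 36 entering, against 30.5% and 43.7%. The median log2 differences were 1.26 and 1.37 over those tested, and -0.00 and -0.16 over all genes tested. In H3K27me3 12 were higher in gastrocnemius and 0 in cortex, with 21 entering, against 28.5% and 16.4%. Over the body 14 were higher in gastrocnemius and 4 in cortex, with 24 entering, against 28.2% and 25.8%. No H3K27me3 peak was called at the start in cortex for 21 of the 40, and in muscle no H3K4me3 peak for 8 and no H3K27ac peak for 11. Such genes can enter only through the other tissue, so nothing is read from these counts against the background. H3K27me3 was present at 21 of 40 in gastrocnemius (52.5%, against 23.2% of all autosomal genes). None of the 3 marks was present there at 5 of 40 (12.5%, against 24.3%). Both the share with H3K27me3 and the H3K4me3 median were lower than in the 36 members (75% and 2.86), and this difference between the lists was not tested.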

How the data were processed

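Histone H3 marks were measured in 57 libraries, 19 per mark, from cortex and gastrocnemius of PSAPP mice. The authors aligned the reads to mm10 with BWA, filtered them with SAMtools and called peaks in each library with epic2, and they deposited for every peak its read count (ChIPCount) and its score. The counts are whole numbers per peak, not normalized, and the depth outside called peaks is not part of the deposited counts. The score deposited by the authors was used here only to rank peaks.

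Members, roles and the other gene lists were chosen with earlier results of these data known. TSSs came from curated RefSeq transcripts of GRCm38.p6, and promoter sequences from RefSeq matched 27 of 36 members. Reads at a TSS are the summed counts of all peaks within 1 kb, whole peaks, and reads of the body were shared by overlap and rounded. A library without a peak entered with 0 reads. Library size was the count in autosomal peaks. Each mark was tested apart with edgeR 4.0.16 (R 4.3.3; quasi-likelihood, tissue as the factor, at least 10 reads in at least 9 libraries) and with two-sided Fisher's exact tests on libraries with a peak (SciPy 1.17.1, genes with a peak in at least 3 libraries of a tissue). Benjamini-Hochberg adjustment ran over all genes tested, and calls are at an adjusted p under 0.1. Both tests were tested on simulated data. The p-values measure the spread between these libraries.

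All 36 members are named with their library counts. Per mark, the 3 largest and 3 smallest fitted log2 differences and the 6 members with most H3K27me3 CPM in gastrocnemius have their ranges given, as do members within 1 library of the presence limit. Further genes were named after their values were seen.

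Alternatives were TMM factors, DESeq2 1.42.0, no read filter, the share of a peak inside the window, the smallest count for uncalled libraries, a window of 2.5 kb, only the gene start, equally many peaks per library, no weakest 25% of peaks, other presence limits, each library left out, and no run-numbered libraries (18 of 57). Leaving out cortex replicate 9 for H3K27ac and gastrocnemius replicate 5 for H3K27me3 in the read test was added after seeing the data. Pairing comes from animal codes in the deposited names, where 9 of 10 animals have both tissues and the label numbers 1 to 4 mark the same animals. Deviations of the same animal from the tissue means were nearly uncorrelated (medians -0.002 to 0.016 over genes). Muscle and cortex names also differ in their processing suffix, so tissue and any such processing difference cannot be told apart. Both sexes were used, unequally in cortex, but the labels used here do not give the sex of a library, so it entered no fit.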

Additional observations from a re-analysis of the deposited data

Results flagged for a closer look

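Of 38 groups of libraries examined, 4 held a library far from the others, by its gap to the nearest one as a share of the range. Chance alone sets off about 1 in 20 such groups. Cortex replicate 5 had the lowest H3K4me3 level at Homer1, 159 CPM against a median of 175. Gastrocnemius replicate 6 had 282 CPM of H3K4me3 at Rab3a against a median of 138. Gastrocnemius replicate 9 had an H3K27ac peak at 26 of the 36 genes, where the median library had 21. Gastrocnemius replicate 5, the H3K27me3 library with the most reads in peaks (18236388), had 106 CPM of H3K27me3 at Rims2 against a median of 63.2. The cause of these values was not tested.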

How the results depend on the processing

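The counts of members called or present kept within 1.5 times their main value in 491 of 534 recomputations, and 242 of 268 recomputed single differences kept their direction and call. For H3K4me3 peak presence higher in cortex, 3 members became 8 with equally many peaks, 7 without the weakest 25% of peaks and 6 with only the gene start. With equally many peaks 8 members had H3K27me3 without H3K4me3 in gastrocnemius. With only the gene start 1 was unmarked in cortex and 1 in gastrocnemius. With presence in every library 7 had H3K27me3 in cortex, all 7 with H3K4me3. The count of H3K27me3 presence higher in cortex ranged from 0 to 1 with each library left out. H3K4me3 reads at TSSs higher in gastrocnemius were 2 with DESeq2, 2 with equally many peaks and 0 with the share of the peak, and over the body 0 with TMM, DESeq2 or the whole gene. H3K27ac reads higher in gastrocnemius were 2 with TMM and 0 with the share of the peak. With the share of the peak the median log2 difference of all genes moved to 0.34 (H3K4me3) and 0.30 (H3K27ac), and the calls higher in cortex went from 49.8% to 80.3% and from 41.1% to 80.1% of all calls. Over the H3K4me3 body they went from 37.8% to 54.8% with the whole gene.

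Without run-numbered libraries the calls were 15 for H3K27ac at TSSs higher in cortex, 4 for H3K27me3 at TSSs and 12 over the body higher in gastrocnemius, and 1 over the body in cortex, with fewer genes tested by construction, since the minimum of 9 libraries was kept among 13. H3K27me3 reads higher in cortex at TSSs were 1 with the smallest count for uncalled libraries and 1 with either replicate block, and over the body 1 with either replicate block.

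Some single differences changed sign. With the share of the peak, H3K4me3 was -0.055 at Homer1, 0.412 at Rab3a, 0.42 at Vamp2 and 0.876 at Shank3, and H3K27ac was 0.405 at Dlg4, 0.60 at Shank3, 0.52 at Slc17a7, 0.56 at Syn2, 0.49 at Nrxn2 and 0.17 at Vamp2. With only the gene start H3K27ac at Syn2 was 5.08. H3K27ac at Shank3 was 0.15 with TMM, 0.168 with DESeq2, 0.069 with equally many peaks, 0.019 without the weakest peaks and 0.021 without cortex replicate 9. H3K27ac at Slc17a7 was 0.091, 0.106 and 0.006 under the first 3 of these, and at Dlg4 it was 0.176 with the 2.5 kb window. With the replicate block, by label number and by animal, H3K27ac was 0.015 and 0.002 at Shank3 and 0.28 and 0.395 at Slc17a7, and H3K27me3 at Slc17a7 was -0.132 and -0.178. The block by animal changed the calls of Nrxn2, Camk2b and Homer1 given above and no other member's. The cause was not tested.

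The fewest reads in peaks of a library were 2994110 for H3K27me3 and 3903965 for H3K27ac. A level of 0 says only that no peak was called at that depth.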
